A study of Mus musculus with 2 samples.

Results

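Fc receptors, Siglecs and inhibitory receptors were followed in macrophages from the peritoneal cavity of mice that lacked the long noncoding RNA MeXis. The 10 genes were Fcgr1, Fcgr2b, Fcgr3, Fcgr4, Fcer1g, Pirb, Siglec1, Siglece, Siglecf and Cd33. They are 10 of the 37074 gene names on the array and were found by name in the array files, which gave 18 non-control probes with 1 spot each. The 2 groups were MeXis null and WT peritoneal macrophages, both from mice whose strain is given as bl6, kept in DMEM with 10% serum and 1% antibiotic. The RNA of each genotype was a pool of 3 samples hybridised to 1 one-colour Agilent array, so no difference below has a replicate check and none has a p-value. The labels name no treatment, age or sex, and they do not say how the MeXis allele was made or how the cells were collected.

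Fc receptors bind the constant part of antibodies. The activating receptors Fcgr1, Fcgr3 and Fcgr4 signal through the common gamma chain, Fcer1g, whose immunoreceptor tyrosine-based activation motif (ITAM) recruits the kinase Syk and starts phagocytosis of antibody-coated particles. Fcgr2b instead carries an inhibitory motif (ITIM) that recruits phosphatases. Pirb uses such motifs after binding MHC class I molecules. Siglecs are lectins that bind sialic acid on the surface of cells, and many of them, Siglece and Siglecf among these, also carry an ITIM. On macrophages these receptors set the threshold at which antibody, lectin and MHC ligands start or stop a response.

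The probes that the results turn on are shown first, because the probes of 1 gene can differ in what they read. The Siglecf probe A_55_P2823856 (chr7:50614768-50614827, mm9, plus strand) starts at base 2437 of its transcript and ends in AATAAA, the letters of the usual polyadenylation signal, in capitals here. The other Siglecf probe, A_51_P199475 (chr7:50614417-50614476), starts at base 2086 of the same transcript. Cd33 was read by A_66_P109986 (chr7:50783849-50783908, minus strand), at base 1488 of its transcript. The 3 Pirb probes are all on the minus strand. A_51_P445726 (chr7:3664148-3664207) holds AATAAA. A_55_P2053398 (chr7:3663046-3663105) starts at base 3729 of its transcript, and the capitals mark letters that also stand in a probe of another gene. A_55_P2053404 (chr7:3668688-3668742) holds CAGGTAAGT, the consensus letters of a 5′ splice donor, in capitals. Bases 31 to 60 of each 60-base probe are given, or bases 16 to 45 for the last 2 Pirb probes, 5′ to 3′. Exon, intron and UTR positions were not analysed here.
Siglecf A_55_P2823856: gtcagtgcttgtcaatgaaatataAATAAA
Siglecf A_51_P199475: ttatttggctttatattgcctgagcagtgt
Cd33 A_66_P109986: ctagaggtcaaagttcagtgccttcctctt
Pirb A_51_P445726: agtaacatcagagtttgtaAATAAAgctag
Pirb A_55_P2053398: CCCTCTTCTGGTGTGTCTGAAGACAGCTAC
Pirb A_55_P2053404: atactcatctCAGGTAAGTccccactatca

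Among all 56605 non-control probes, AATAAA was found on the sense strand of 9.77% and on the other strand of 3.85%. CAGGTAAGT was found on the sense strand of 10 probes (0.0177%) and on the other strand of 17 (0.03%). Of the 18 receptor probes, 2 held AATAAA in sense, 1 held it on the other strand and 1 held CAGGTAAGT in sense. Of the 18 probes, 6 shared a run of at least 15 bases with a probe of another gene name, and for 5 of these the other gene name was a single one with a run of 15 to 18 bases. The exception was Pirb A_55_P2053398, which shared such runs with probes of 33 other gene names, the longest of 33 bases.

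The arrays held 62976 features each, on the same slide and in the same scan. On the MeXis null array 26257 (44.3%) of 59305 non-control spots passed the software's background test, and on the WT array 28463 (48%) did. The lowest signal well above background was 27.3 on the MeXis null array and 12.1 on the WT array. The 1 probe of the deleted gene, Mexis A_66_P106525 on chromosome 4, read 8.438 on the MeXis null array and 12.3 on the WT array and passed the background on neither, so it does not check the labels. Of 15 macrophage markers, 14 passed the background on both arrays, Cd68 among them at 196155 on the MeXis null array and 115941 on the WT array. Timd4, a marker of resident peritoneal macrophages, was the 1 that did not. Gata6, also known from these cells, read 683.2 on MeXis null and 415.1 on WT and passed on both.

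Signals are the scanner software's processed intensities in arbitrary units. Every difference is on the log2 scale, MeXis null minus WT, after division by each array's 75th percentile (2228 on MeXis null and 2092 on WT) over the probes that both arrays measured above background. The level of one probe cannot be set against that of another. A difference was called at 1.5-fold or more (0.585) where it also exceeded the scanner error limit, the normal 95% limit of the combined error of both spots. A second limit came from 285 probes printed at least 5 times: their repeated spots gave differences with a median SD of 0.466, so 0.914, or 1.88-fold, was taken as the limit for a single spot. A call between 0.585 and 0.914 therefore lies within the spread that repeated spots of 1 probe show.

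Of the 10 receptor genes, 8 were within the limits of a call. Siglecf was the 1 gene called lower in MeXis null, where 14.3% of the 15474 genes measured on both arrays were lower. Cd33 was the 1 gene called higher, where 18.2% of those genes were. The median difference of the 10 genes was 0.09, beside 0.04 for all genes, and the values ran from -0.75 to 0.71. Of the 10 genes, 0 lay beyond 0.914, where 15.1% of all genes did. Pirb entered these gene values by probe A_55_P2053398, whose signal is not known to be that of Pirb, as given below. By probe, 16 of 18 were above background on both arrays, of which 2 were called lower (14.0% of all 22733 probes) and 2 higher (19.0%). The shares of receptors called are near those of all genes and probes, and nothing particular to the receptors is read from them.

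**Figure D1:**
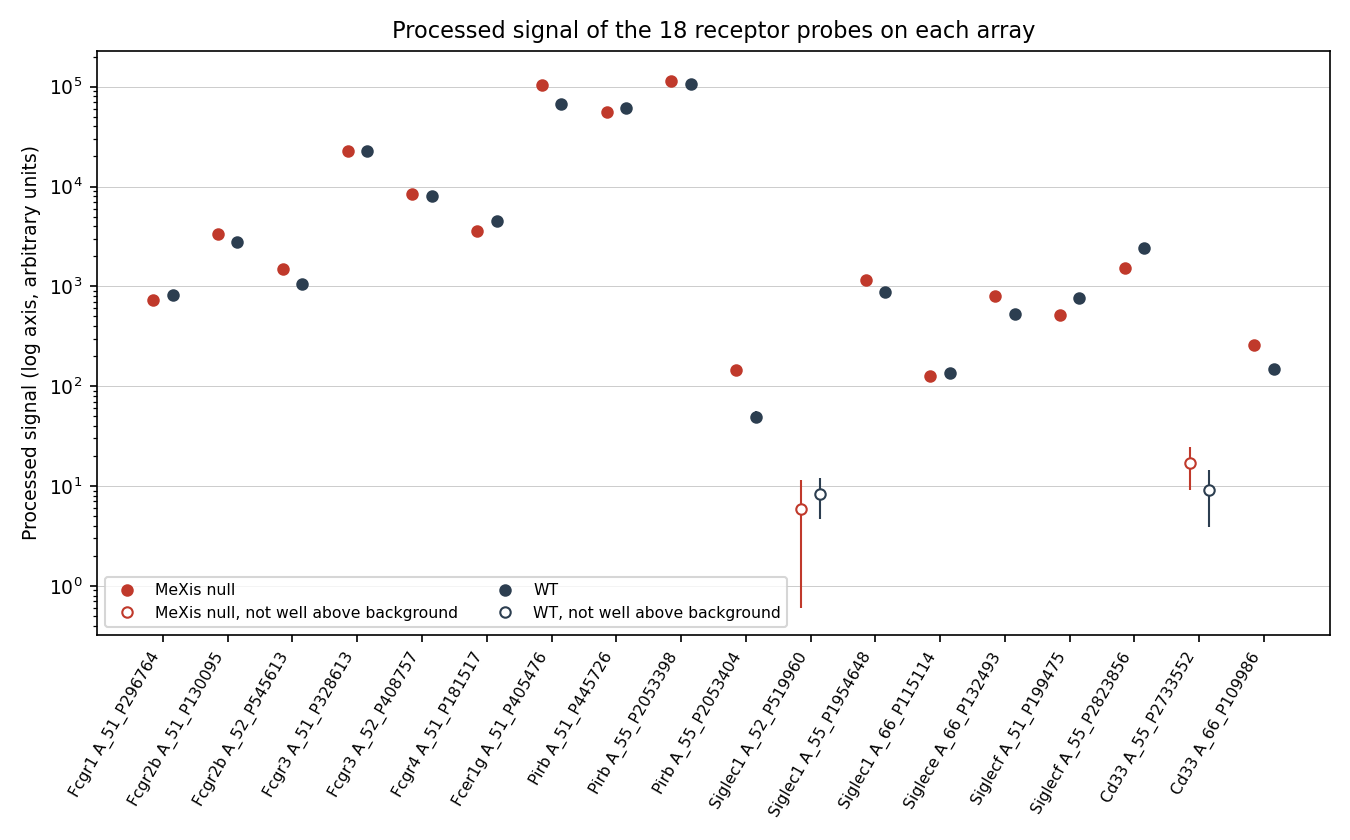
Processed signal (log axis, arbitrary units) of each of the 18 receptor probes, with MeXis null left of WT for each probe. Bars are the scanner error of the single spot. Open circles mark the 2 probes not well above background on either array, and the widest gap between the arrays is at Pirb A_55_P2053404, at 146.5 on MeXis null and 49.45 on WT.

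**Figure D2:**
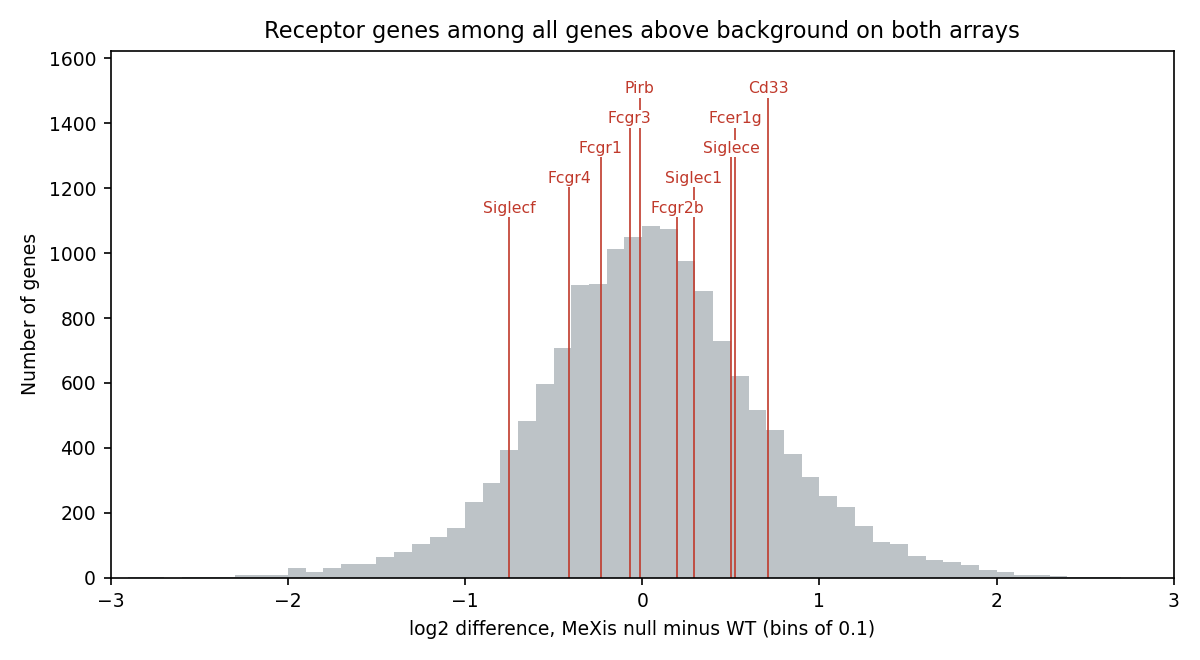
Number of genes by log2 difference, MeXis null minus WT, in bins of 0.1, for the 15474 genes above background on both arrays, with the 10 receptor genes as lines. Siglecf at -0.75 and Cd33 at 0.71 are the outer lines, and 9.31% and 85.6% of all genes lie below them.

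Siglecf, which in mice marks eosinophils and alveolar macrophages and binds sialylated glycans, was the receptor with the lowest difference. Its probe A_55_P2823856 read 1538 ± 154 on the MeXis null array and 2430 ± 243 on the WT array (scanner error), 1.68-fold lower in MeXis null (difference -0.75). The second probe, A_51_P199475, read 520.2 ± 52.5 on MeXis null and 765.3 ± 76.6 on WT, 1.57-fold lower (difference -0.65). Both probes were thus lower on the MeXis null array by more than the scanner error and by less than the spot limit of 0.914. They target the same transcript and share each array, so they are not replicates of the genotype. When each spot was set against the spots around it, a step called local surface correction below, the differences were -0.72 and -0.58, the second just short of 1.5-fold.

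Markers of eosinophils, the cells best known for Siglecf, stand beside this difference. Of 8 such markers 0 were above background on both arrays, and 3 were above it on WT only. Ear2, a ribonuclease gene, was lower in MeXis null by at least 45.8-fold and its relative Ear1 by at least 14-fold, while Il5ra had no fold. Epx, Prg2, Ccr3, Ear6 and Alox15 were above background on neither array, with Epx, the eosinophil peroxidase, at 9.406 on MeXis null and 3.678 on WT. The signals of the 8 summed to 129.4 on MeXis null and 1902 on WT, most of it from Ear2 (34.26 on MeXis null and 1475 on WT) and Ear1 (28.62 on MeXis null and 376.3 on WT). The other 6, of which only Il5ra passed the background on an array, summed to 66.6 on MeXis null and 51 on WT. The part of these markers in the Siglecf difference was not tested. In pooled RNA, fewer cells of a type and less RNA per cell cannot be told apart.

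Cd33, the founding member of its group of Siglecs, was the gene with the highest difference. Probe A_66_P109986 read 256.4 ± 26.8 on the MeXis null array and 147 ± 15.2 on the WT array, 1.64-fold higher in MeXis null (difference 0.71). The size of this difference depended on the processing. It was 1.14 with the local surface correction, 0.51 before the software's multiplicative detrending and 0.39 with normexp background correction, and in the last 2 of these it was no longer called. The second Cd33 probe, A_55_P2733552, was well above background on neither array (16.83 on MeXis null and 9.143 on WT), so it gives no fold and no second reading.

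Siglece, an inhibitory Siglec of mouse neutrophils and macrophages (A_66_P132493, chr7:50906669-50906728, minus strand), read 800.8 ± 80.5 on MeXis null and 531.4 ± 53.3 on WT. The difference of 0.50 (1.41-fold) exceeded the limit set by its scanner error of 0.205 and did not reach 1.5-fold. It was 0.40 with the local surface correction, 0.22 before detrending and 0.21 with normexp, each within that limit. Siglec1, the sialoadhesin of tissue macrophages, which has a long extracellular part and no ITIM, was read by 3 probes. A_55_P1954648 (chr2:130895093-130895152) read 1155 ± 116 on MeXis null and 886.3 ± 88.9 on WT, a difference of 0.29. A_66_P115114 (chr2:130897963-130898022) read 125.1 ± 16.1 on MeXis null and 137.1 ± 15.2 on WT, a difference of -0.22. The third, A_52_P519960, was well above background on neither array, at 5.951 on MeXis null and 8.348 on WT. The 2 readable Siglec1 probes therefore had opposite signs, and neither difference exceeded its scanner error limit. With normexp the second was at 0.01.

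Of the IgG receptors that activate, none was called. Fcgr1, the high-affinity IgG receptor (A_51_P296764, chr3:96088462-96088521, minus strand), read 733.8 ± 74.1 on the MeXis null array and 809.8 ± 81.1 on the WT array, a difference of -0.23. Before the multiplicative detrending its difference was -0.62, past 1.5-fold, and with the local surface correction it was -0.25. Fcgr4, an activating receptor of intermediate affinity (A_51_P181517, chr1:172959738-172959797, plus strand), read 3581 ± 358 on MeXis null and 4471 ± 447 on WT, a difference of -0.41, or 1.33-fold lower. With the local surface correction it was -0.61 and was called lower. Both genes were below 0 in each alternative, from -0.62 to -0.23 for Fcgr1 and from -0.61 to -0.32 for Fcgr4.

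Fcgr3, the low-affinity activating receptor, read nearly the same on both arrays with both probes. A_51_P328613 read 22819 ± 2282 on MeXis null and 22496 ± 2250 on WT, a difference of -0.07. A_52_P408757 read 8456 ± 846 on MeXis null and 7955 ± 796 on WT, a difference of -0.003, which was 0.26 with the local surface correction and 0.15 both with normexp and before detrending. Both main values were within the scanner error, so Fcgr3 has no side of 0. Fcer1g, the gamma chain that the activating receptors need at the cell surface (A_51_P405476, chr1:173159794-173159853, minus strand), read 103476 ± 10348 on MeXis null and 67474 ± 6747 on WT. Its difference of 0.53, 1.44-fold, was past the limit set by its scanner error of 0.204 and short of 1.5-fold, and it was 0.36 with the local surface correction. The difference of Fcgr1, -0.23, was within the limit set by its scanner error of 0.205, so its side of 0 is not resolved either. That of Fcgr4, -0.41, was just past its limit and was within it with normexp, at -0.32. No contrast between these receptors and their shared subunit Fcer1g is drawn from the signs.

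Fcgr2b, the inhibitory IgG receptor, lies next to Fcgr3 and Fcgr4 on chromosome 1 and was read by 2 probes. A_51_P130095 (chr1:172890988-172891047, minus strand) read 3382 ± 338 on the MeXis null array and 2772 ± 277 on the WT array, a difference of 0.20. A_52_P545613 (chr1:172895833-172895892) read 1487 ± 149 on MeXis null and 1052 ± 105 on WT, a difference of 0.41. Neither was called. The second probe reached 0.60 with the local surface correction and was then called higher, while the first was at 0.05. Fcgr2b is close in sequence to Fcgr3 outside the cell. An internal probe of each is set out to show what was read, and the pair does not set that similar part side by side. They start at different places, base 765 of the Fcgr2b transcript and base 550 of the Fcgr3 transcript, and no letters are marked.
Fcgr2b A_52_P545613: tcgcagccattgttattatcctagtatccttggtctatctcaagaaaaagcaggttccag
Fcgr3 A_52_P408757: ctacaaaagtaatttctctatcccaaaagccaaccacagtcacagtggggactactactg
The Fcgr3 probe lies at chr1:172984129-172984188, minus strand. How far either probe binds the transcript of the other gene was not tested.

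B cells also carry Fcgr2b, and 5 of 7 B cell markers above background on both arrays were called lower in MeXis null (14.3% of all genes were), with a median of -0.92. Cd79b, a chain of the B cell receptor, read 425.2 on MeXis null and 1309 on WT. The 10 B cell markers summed to 1055 on MeXis null and 2512 on WT. The difference of Fcgr2b A_51_P130095 was within the limit set by its scanner error of 0.204, so no contrast of sign with these markers is drawn. The part of B cell RNA in the Fcgr2b signal was not tested.

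Pirb gave 3 readings that did not go together. A_51_P445726, whose letters were not found in runs of 15 or more in any other gene's probe, read 55287 ± 5529 on the MeXis null array and 61524 ± 6152 on the WT array, a difference of -0.25. Its sign depended on the software's detrending, which divided the MeXis null spot by 1.29 and the WT spot by 0.846: before that step the difference was 0.37. A_55_P2053398 stood for the gene by the rule of highest mean signal. It read 112805 ± 11280 on MeXis null and 106936 ± 10694 on WT, a difference of -0.01, and it is the probe that shares runs with 33 other gene names. Of the probes it shares them with, 29 were above background on both arrays, so its signal is not known to be that of Pirb. Neither of these 2 probes was called under the main settings.

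The third Pirb probe, A_55_P2053404, read 146.5 ± 16.5 on MeXis null and 49.45 ± 6.71 on WT. It was 2.78-fold higher in MeXis null (difference 1.48, scanner error 0.255) and was the 1 receptor probe beyond the spot limit of 0.914, past which 15.4% of all probes lay. Its difference stayed above 0.585 in each alternative, from 0.90 with normexp to 1.55 before detrending. This is the probe with CAGGTAAGT, it is listed under another transcript than A_51_P445726, and it shared 18 bases with a probe named Lilra6. Its 60 letters span 55 bases of mm9 per the file's coordinates. Whether it reads the same messenger RNA as the other 2 probes was not tested, and no difference of Pirb as a gene is drawn from it.

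**Figure D3:**
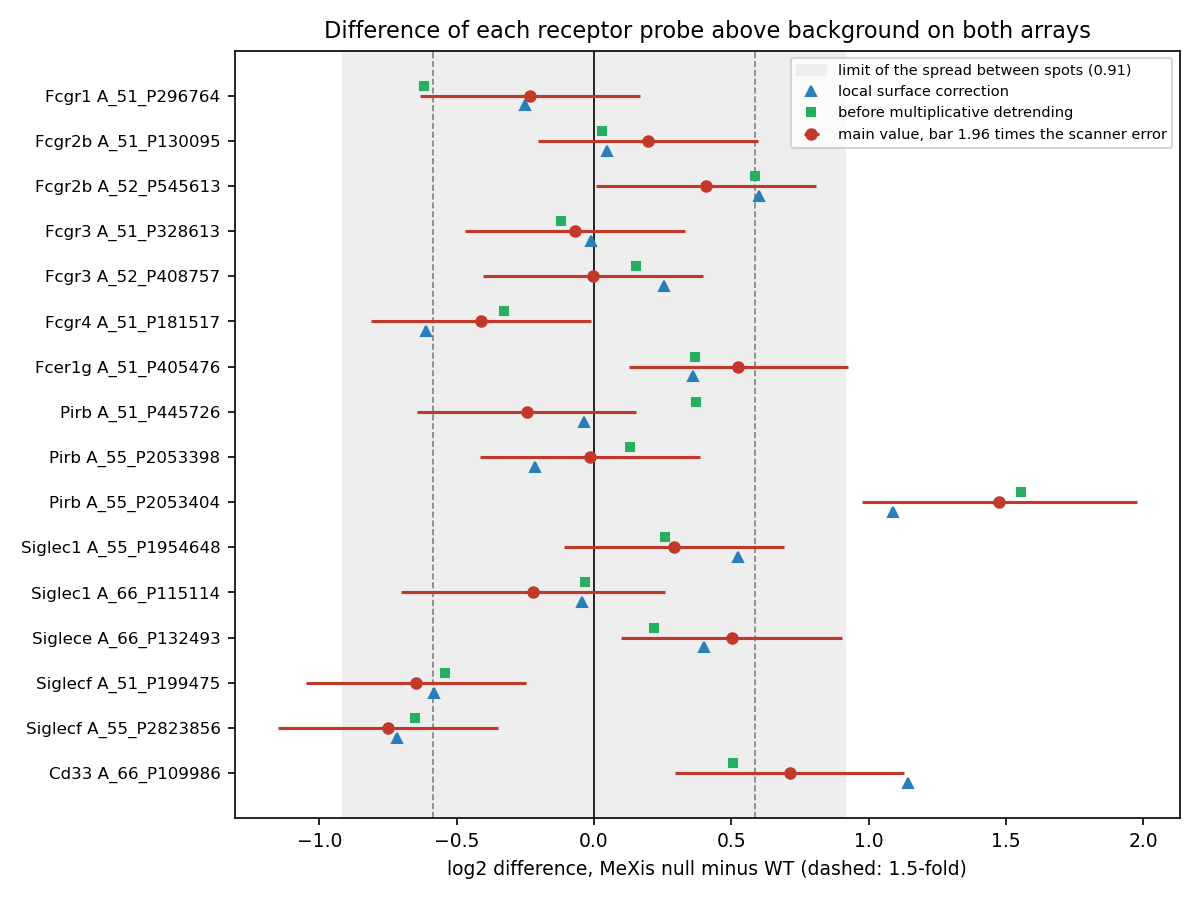
Log2 difference, MeXis null minus WT, of the 16 receptor probes above background on both arrays, with bars of the scanner error limit. Triangles give the local surface correction and squares the values before multiplicative detrending; Pirb A_55_P2053404 at 1.48 is the 1 main value outside the grey band of 0.91, and both Siglecf probes lie left of the 1.5-fold line.

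Of the 6 receptor genes with several probes, 5 had more than 1 above background on both arrays. Their probes had the same sign for Fcgr2b, Fcgr3 and Siglecf and opposite signs for Pirb and Siglec1. Only for Siglecf were all of these probes past the scanner error limit. For the other genes, agreement or disagreement of sign is not resolved. The 2 Siglecf probes, at -0.75 and -0.65, lay close together, whereas the Pirb probes ran from -0.25 to 1.48.

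The genes around the receptors were read in the same way. On chromosome 1, Fcgr2b, Fcgr4, Fcgr3 and Fcer1g lie within 269 kb, and with 100 kb on either side there were 24 other gene names. Of the 13 above background on both arrays, 1 was called higher and 3 lower, with a median of -0.16. Chosen after their values were seen, Pcp4l1 was at 1.44, B4galt3 at -0.85 and Dusp12 at -0.70, and B4galt3 was at 0.18 with the local surface correction. Around Siglecf, Cd33 and Siglece on chromosome 7, which lie within 292 kb, 0 of 8 were called higher and 2 lower, Gm38999 (-1.47) and Zfp719 (-1.09), with a median of -0.19. The Siglec gene in that interval that is no member, Siglecg, an inhibitory receptor of B cells, was seen above background on the WT array alone, with MeXis null lower by 2.44-fold or more.

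The other genes of these pathways were described by lists. Of 6 further Fc receptors and Fc receptor-like genes above background on both arrays, 0 were called in either direction, and their median was -0.44. Trim21, the cytosolic antibody receptor, was at -0.50 and Fcrl5 at 0.33, while Fcrl1, a B cell gene, was likewise above background only on WT, with MeXis null at least 2.41-fold lower. Of 3 further Siglecs, 0 were called, with Siglech at -0.36 and Mag at 0.12. Of 11 other receptors with an ITIM, 3 were called higher (18.2% of all genes were) and 0 lower, with a median of 0.19. These were Cd72 (2.05), best known from B cells, the collagen receptor Lair1 (0.99) and the lectin Clec12a (0.95), all past 0.914, and the lowest were Cd300lf (-0.50) and the CD47 receptor Sirpa (-0.31). Pecam1 and Cd5 were above background on WT only, at least 2.28-fold and 2.7-fold lower in MeXis null.

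Among 14 activating partners, most of which signal with Fcer1g or the related adaptor Tyrobp, 5 were called higher and 1 lower, beside 18.2% and 14.3% of all genes, with a median of 0.43 (0.46 with the local surface correction). The lectins Clec4e and Clec4n, which signal through Fcer1g, were at 1.997 and 1.951. Pira6 and Pira11, activating relatives of Pirb, were at 1.25 and 1.13, and at 0.70 and 0.60 with the local surface correction. Pira2 was at -0.46 with probes of opposite sign. The Pira genes resemble one another closely, and cross-reading between them cannot be told apart here. Pilrb1 was lowest, at -1.86, and was at -0.90 with the local surface correction.

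Downstream, 2 of 18 ITAM kinases and adaptors were called higher and 3 lower, beside 18.2% and 14.3% of all genes. Syk read 7363 on MeXis null and 17634 on WT (-1.35), though its probes had opposite signs, and the guanine nucleotide exchange factor Vav1 was at -0.97, while Lat2 (0.80) and Src (0.59) were the highest. Blnk, the third gene called lower, was at -0.62. Of 12 phosphatases and adaptors of the inhibitory arm, 0 were called higher and 2 lower, Ptpn11 (-0.72) and the ubiquitin ligase Cblb (-1.12). With the local surface correction Cblb was at -0.06, Ptpn11 at -0.55, Vav1 at -0.55, Src at 0.57 and Blnk at 0.08, and none of these was then called. Inpp5d and Ptpn6, the phosphatases that Fcgr2b and Pirb are known to recruit, were at 0.04 and -0.32. Cblb and Ptpn6 each had probes of opposite sign. Of 18 genes of the phagocytic machinery, 5 were called higher and 2 lower, with the oxidase subunits Ncf1 (1.29) and Cybb (0.81) highest and Elmo1 (-0.77) and Mpeg1 (-0.67) lowest. Mpeg1 was at -0.15 and not called with the local surface correction, where Wasf2 (-0.78) was called lower instead. With the local surface correction, where 14.2% of all genes were called higher and 10.2% lower, the counts were 1 higher and 1 lower for the ITAM list, 1 and 0 for the inhibitory arm, and 5 and 2 for the phagocytic list. For the activating partners they were 6 and 1, for the other receptors with an ITIM 4 and 0, and for the further Fc receptors 0 and 3.

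**Figure D4:**
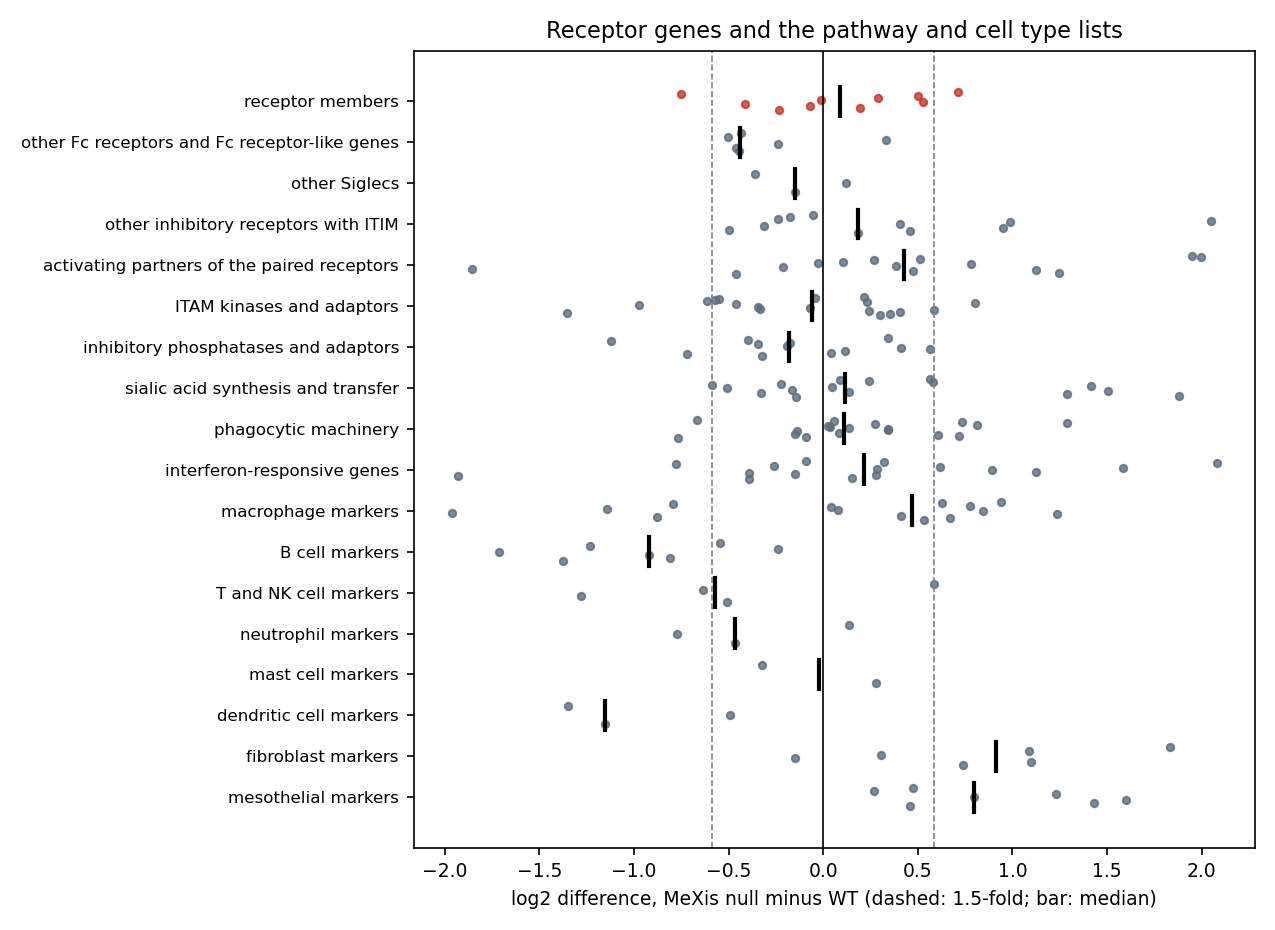
Log2 difference, MeXis null minus WT, of each gene above background on both arrays, for the 10 receptors (red) and for each pathway and cell type list, with the median of each list as a bar. The receptors lie between -0.75 and 0.71, and the activating partners have a median of 0.43.

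Further cell type markers were read in the same way. Besides the eosinophil and B cell lists, 4 of 6 fibroblast markers above background on both arrays were called higher in MeXis null (18.2% of all genes were), with Col1a2 at 6621 on MeXis null and 2905 on WT and Dcn at 2641 on MeXis null and 2010 on WT. The fibroblast list was not uniform: Col3a1 was at -0.15, and Lum was above background on WT only, at least 3.45-fold lower in MeXis null. Of 7 mesothelial markers, 4 were called higher, among them Wt1 at 1.60, and the list summed to 2039 on MeXis null and 851.5 on WT. Of 4 T and NK cell markers, Cd2 and Lck were called lower, beside 14.3% of all genes. So were Csf3r, of 3 neutrophil markers, and Ccr7 and Tcf4, of 3 dendritic cell markers. Of 2 mast cell markers above background on both arrays 0 were called. Cma1 and Cpa3, of the same list, were above it on WT only, at least 2.37-fold and 1.45-fold lower in MeXis null. Lck was at -0.40 and not called with the local surface correction. Of the 14 macrophage markers, 6 were called higher and 4 lower, beside 18.2% and 14.3% of all genes. With the local surface correction the counts were 4 and 4, beside 14.2% and 10.2%. Cd68 was at 0.67 (0.45 and not called with the local surface correction) and Csf1r at -0.88, though each gene had probes of opposite sign. The whole list summed to 460615 on MeXis null and 312690 on WT. The part of these markers in the receptor differences was not tested.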

How the data were processed

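RNA of each pool was labelled with Cy3 per the labels. The deposited scanner files give the intensity of every spot on a linear scale, from Agilent's Feature Extraction software (version 11.5.1.1 in the file headers). It subtracted background, divided out a fitted trend across the array (multiplicative detrending) and attached an error to each spot, per those file headers. The deposited series matrix holds the same intensity values in all 62976 features (medians of 17 on MeXis null and 12.9 on WT), hence linear and not centred, and 0 of its columns lacked a sample. Coordinates are those of mm9, as the file headers give them.

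Left out were control spots and spots with an outlier mark (205 on MeXis null, 305 on WT, 0 of the 18 receptor spots). No spot was saturated (0 on each array). Spots of a probe were averaged on the log2 scale, leaving 56351 probes. The probe with the highest mean log2 signal stood for its gene. Names came from a RefSeq table of GRCm38.p6, with no coordinates taken from it. It matched 32994 probes through an accession, 10224 through a symbol and 520 through a synonym, while 12867 stayed as in the file and all 18 receptor probes kept their names. For a gene bright on 1 array a bound was computed: the bright value over the dim array's own reading or its lowest signal well above background, whichever was higher.

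With 1 array per genotype no test was made, and the number of arrays limits the precision. The members, lists, rules and alternatives were chosen with earlier results of these data known. The text names every receptor probe, the 2 highest and 2 lowest of each pathway list, the 2 markers with the most signal on WT, markers below background, and receptors bright on 1 array. Other names were picked with their values in view. The values of some genes that these rules would name are not reported here. Other settings numbered 14, with 1 more added after seeing the data, the signal before multiplicative detrending. The local surface correction used the 100 nearest spots, whose median difference was taken off, and brought the SD of repeated spots down to 0.343. The steps were tested on simulated data. Python 3.11.15, pandas 2.3.3, R 4.3.3 and limma 3.58.1 were used.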

Additional observations from a re-analysis of the deposited data

How the results depend on the processing

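With normexp background correction 0 receptor genes were called higher, 1 probe lower and 1 probe higher. At 2-fold 0 genes were called in either direction, 0 probes lower and 1 probe higher (Pirb A_55_P2053404), and at 3-fold 0 genes and 0 probes in either direction. With the local surface correction 2 genes were called lower (Fcgr4 and Siglecf). Before multiplicative detrending 2 genes were called lower (Fcgr1 and Siglecf) and 0 higher. The causes of these changes were not tested, apart from the stricter thresholds, which by construction call fewer. Siglecf remained lower in 10 of 10 alternatives at 1.5-fold, from -0.83 to -0.63, and Cd33 remained higher in 8 of 10. These 10 leave out the filters on dim probes and the dropped scanner error limit, and they include the series matrix, which repeats the main values. Of 374 single values, 371 moved by less than the SD between spots, and the other 3 were Pirb A_51_P445726, at 0.37 with normexp and before detrending, and Pirb A_55_P2053404, at 0.90 with normexp. Of the 322 that keep 1.5-fold, 13 nevertheless changed call (Cd33, Fcgr1, Fcgr4, Fcgr2b A_52_P545613 and Siglecf A_51_P199475) and 10 changed sign (Pirb, 2 of its probes, Fcgr3 A_52_P408757 and Siglec1 A_66_P115114), with normexp, before detrending or with the local surface correction. Of values called under the main settings 0 changed sign. These counts include settings that cannot move a difference. They are the fold thresholds, the filters on dim probes, the dropped scanner error limit and the series matrix values, which equal the main ones. A gene's value also mostly repeats that of its probe. Much of the agreement was therefore fixed in advance. The median of all genes lay between -0.04 and 0.08 over the settings, except 0.46 with no filter on dim probes, where most probes are below background. No paired analysis was possible because each genotype had 1 array, and no replicate could be left out. Signal over background limits Cd33 A_55_P2733552 and Siglec1 A_52_P519960, which give no fold.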

Other observations

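Genes of sialic acid synthesis and transfer, which make the ligands of Siglecs, were not described above. Of 16 above background on both arrays, 4 were called higher in MeXis null and 1 lower, where 18.2% and 14.3% of all genes were, and the list median was 0.11. Nans, the synthase of sialic acid phosphate, read 3942 on MeXis null and 1006 on WT (1.88), and Nanp, the phosphatase that follows it, read 234.8 on MeXis null and 90.38 on WT (1.29). Slc35a1, which carries activated sialic acid into the Golgi, read 2024 on MeXis null and 670.9 on WT (1.503), and the sialyltransferase St3gal4 read 678.9 on MeXis null and 239.4 on WT (1.41). These 4 lay beyond the spot limit of 0.914. Gne, which starts the pathway, was at -0.14, Cmas, which activates sialic acid, was at -0.33, and the sialyltransferases St3gal5 and St3gal2 were at -0.59 and -0.51, St3gal5 being the gene called lower. Cmas and St3gal2 each had probes of opposite sign. With the local surface correction Nans was at 1.82, Slc35a1 at 1.24, St3gal4 at 1.34 and Nanp at 0.92, while St3gal5 was at -0.39 and not called.

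Of 16 interferon-responsive genes above background on both arrays, 5 were called higher and 2 lower, beside 18.2% and 14.3% of all genes, with a list median of 0.22. The chemokine Cxcl10 read 173.8 on MeXis null and 38.65 on WT (2.08) and Oas2, an antiviral enzyme, 426.3 on MeXis null and 133.4 on WT (1.59). The transcription factor Irf8 was lowest at -1.93, and was at -1.05 with the local surface correction. Usp18 was at -0.78, and at -0.81 with that correction. Siglec1, which interferon is known to raise, is given in the report with 2 probes of opposite sign, neither past its scanner error limit.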
